A study of Mus musculus with 20 samples.

Results

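The kallikrein-kinin genes described here are Klk1, Kng1, Kng2, Bdkrb1 and Bdkrb2, 5 of the 47069 Ensembl genes in the deposited count table. They were chosen by symbol, as the protease, the precursors and the receptors of the system, and each symbol matched 1 gene in the counts and 1 entry in the FPKM table. Tissue kallikrein, the product of Klk1, is a serine protease that the connecting tubule secretes into the urine. It cuts kinin peptides out of kininogens, which Kng1 and Kng2 encode, and kinins act on the B2 receptor (Bdkrb2) and, after loss of their last arginine, on the B1 receptor (Bdkrb1), with vasodilation and sodium excretion among their known effects. Angiotensin-converting enzyme, the target of ramipril, also degrades kinins.

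RNA of whole kidneys from 20 male mice of the 129SJ x C57Bl/6J strain was sequenced at 15 weeks of age. The WT group held 5 littermates with an intact Col4a3 gene that received no treatment. The other 15 mice were Col4a3-/-, so they lacked the α3 chain of type IV collagen in every tissue, and all were followed from 5 weeks of age under 1 of 3 regimens. The Veh group (n = 6) received PBS subcutaneously once a week, the Anti-miR-21 group (n = 6) was given the miR-21-blocking oligonucleotide lademirsen (50 mg/kg, same route and schedule), and the ACEi group (n = 3) received ramipril in the drinking water beside weekly PBS. The labels put ramipril at 11 mg/L, whereas the deposited library table names 4 mg/kg. WT mice received no injections, so genotype and injection cannot be told apart in comparisons with WT.

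Each library held between 28474301 and 29479629 estimated counts on genes, and 13 of the 20 were run on 1 flow cell (A) and 7 on another (B), with all 4 groups on both. Col4a3 had 4350 to 5663 counts in WT and 1015 to 1931 in the Col4a3-/- libraries (counts over the whole gene). The extraction text names adipose tissue, but the summed level of 4 proximal tubule markers was 1116 to 12386 CPM, that is, counts scaled to a common library size in these libraries, against at most 113 CPM for 4 adipocyte markers. Transcripts of liver were unequal between libraries: Alb reached 639 to 2307 counts in 5 libraries (WT mice A17 and A18, Veh mouse A20, ACEi mice A13 and A23) and 7 to 247 in the other 15. Libraries differed in composition by group, and scaling by library totals alone, without the TMM factors used below, moved the median log2 fold change over genes from 0.07 to 0.65 for Veh against WT.

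The oligonucleotide given to the Anti-miR-21 group acts on mmu-miR-21a-5p, encoded at chr11:86584120-86584141 on the minus strand (GRCm38.p6, RefSeq). Its mature sequence is shown with the seed, bases 2 to 8, in capitals.
mmu-miR-21a-5p: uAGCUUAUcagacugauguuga
A match to that seed (ATAAGCT) was in 0 of the 18 annotated transcripts of the 5 genes, against 12.5% of the 21877 protein-coding genes with it in any of their coding transcripts. This says only that these letters are not in those transcripts.

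Klk1 and Kng2 were the members whose levels followed the groups most closely, and their promoters are shown for that reason, as the 250 bases before the RefSeq start. Klk1 lies on chromosome 7 (chr7:44225360-44229618, plus strand, ENSMUSG00000063903) and Kng2 on chromosome 16 (chr16:22985854-23029482, minus strand, ENSMUSG00000060459). These gene bounds are from GENCODE, in which Kng2 starts further upstream than in RefSeq. The bases shown for Kng2 thus lie before the RefSeq start but inside the GENCODE gene. Capitals mark AGGTCA, the half-site that many nuclear receptors bind, or its reverse complement.
Klk1, chr7:44225110-44225359, plus strand: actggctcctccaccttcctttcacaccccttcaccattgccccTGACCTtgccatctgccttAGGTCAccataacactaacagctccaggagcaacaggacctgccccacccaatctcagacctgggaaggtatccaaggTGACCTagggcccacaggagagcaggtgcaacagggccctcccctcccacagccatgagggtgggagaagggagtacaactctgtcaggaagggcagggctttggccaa
Kng2, chr16:23029102-23029351, minus strand: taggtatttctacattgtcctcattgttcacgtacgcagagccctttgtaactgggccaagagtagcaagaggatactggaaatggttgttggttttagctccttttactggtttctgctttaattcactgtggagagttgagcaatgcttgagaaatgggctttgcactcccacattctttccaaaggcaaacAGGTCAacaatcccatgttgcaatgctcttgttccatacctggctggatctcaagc
On both strands, AGGTCA occurred 3 times in the Klk1 promoter and once in that of Kng2, and it was in 16.3% of the 32851 mouse promoters of the same table, each a window of 300 bases that also holds the first 50 after the start. The promoter of Bdkrb2 did not hold it. GTTAAT (in 7.10% of promoters), TATAAA (13.6%) and TGANTCA (7.81%) were in none of the 3 promoters, and CCAAT (37.4%) was in that of Klk1. The table held no promoter for Kng1 or Bdkrb1. These matches are letters in a window and were not measured as sites.

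Kng1 (chr16:23057865-23082078, plus strand, ENSMUSG00000022875) lies beside Kng2 and is a near copy of it, which bears on how their reads can be told apart. Over 1929 aligned coding bases the pair was 92.7% identical. A stretch of 60 coding bases that differ most, crossing from exon 3 into exon 4, is shown with the differing bases in capitals.
Kng1, chr16:23061684-23067745, plus strand: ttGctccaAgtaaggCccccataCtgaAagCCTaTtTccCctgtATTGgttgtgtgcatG
Kng2, chr16:23012119-23024848, minus strand: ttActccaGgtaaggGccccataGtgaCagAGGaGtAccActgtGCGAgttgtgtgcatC
Of the 100-base windows in their transcripts, the length of 1 read, 4.93% for Kng1 and 5.29% for Kng2 were exact copies of a window in the other gene. For Klk1 5.09% of windows were shared, nearly all with its paralogue Klk1b5, whose coding sequence was 95.2% identical. Bdkrb1 and Bdkrb2 shared no window with another gene.

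Per unit of transcript length the 5 genes were far apart. In WT kidneys the mean FPKM was 1399 ± 234 (SD, n = 5) for Klk1, 132 ± 8.84 for Kng2, 0.642 ± 0.624 for Kng1, 0.0578 ± 0.0450 for Bdkrb2 and 0.0312 ± 0.0428 for Bdkrb1. Among the entries of a WT library, Klk1 ranked between 28 and 39 by FPKM and Kng2 between 550 and 646. The transcripts of the protease and of 1 precursor were thus abundant, whereas both receptors were at or near the limit of a library this deep. The order of the mean FPKM was the same in Veh, Anti-miR-21 and ACEi kidneys. By a median over mice, the FPKM of Klk1 was 9.51 times that of Kng2 in WT, 4.67 times in Veh, 7.12 times in Anti-miR-21 and 9.26 times in ACEi kidneys.

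Klk1, the protease, fell to 22.7% of the WT level in Veh kidneys and stood at 2.42 times the Veh level under Anti-miR-21 and 2.33 times under ACEi (ratios of mean CPM). The 5 WT mice had 1248, 1276, 1328, 1792 and 1821 CPM (after TMM scaling). In Veh the lowest mouse had 221.3, the median was 323 and the highest mouse had 481 CPM. In Anti-miR-21 mice the lowest value was 617, the median 801 and the highest 997 CPM, and the 3 ACEi mice had 760, 798 and 806 CPM. Every WT mouse was above every treated mouse, and every treated mouse was above every Veh mouse, while the ranges of both treated groups overlapped. The group means were 1493 ± 288 (SD, n = 5) in WT, 339 ± 92.0 (n = 6) in Veh, 821 ± 151 (n = 6) in Anti-miR-21 and 788 ± 24.5 (n = 3) in ACEi kidneys.

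**Figure D1:**
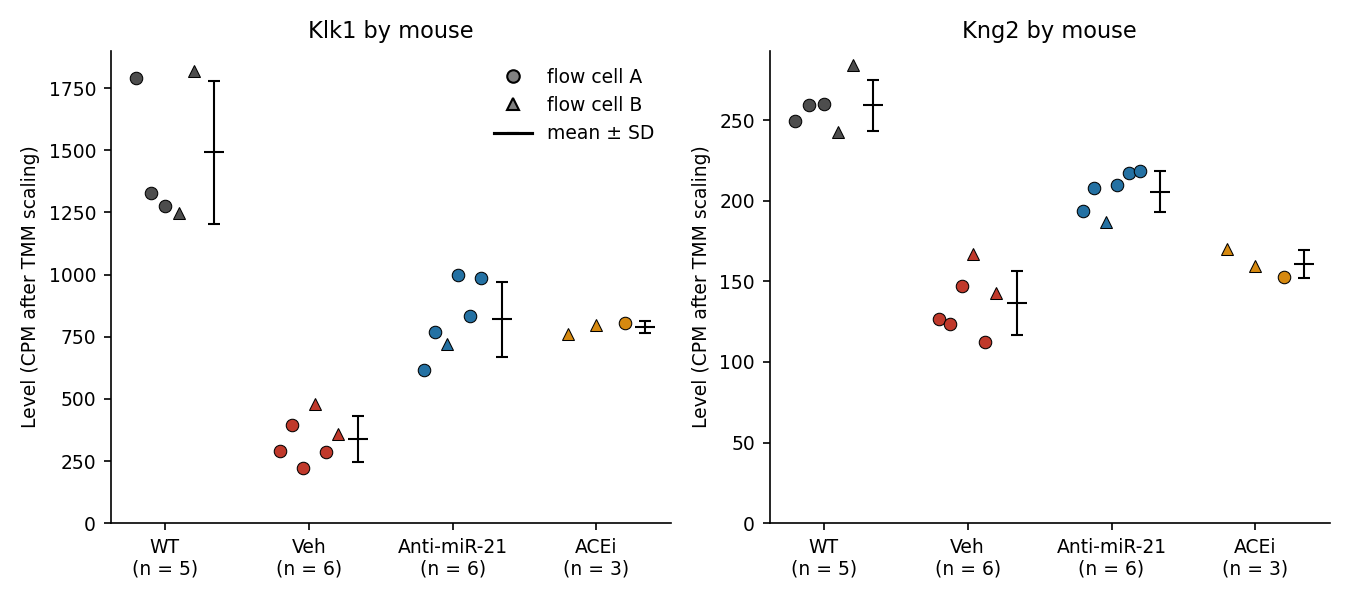
Levels of Klk1 (left) and Kng2 (right) in CPM after TMM scaling for each of the 20 mice by group, with circles for flow cell A, triangles for flow cell B and bars for the mean ± SD. Klk1 in Veh (221.3 to 481 CPM) lies below every other mouse, and Kng2 in WT (243 to 285 CPM) lies above every other mouse.

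By edgeR's quasi-likelihood test over all 17622 genes that passed the count filter, the log2 fold change of Klk1 was -2.14 ± 0.17 (SE) between Veh and WT (adjusted p = 8.04e-10). Relative to Veh it was 1.28 ± 0.16 under Anti-miR-21 (adjusted p = 1.74e-06) and 1.22 ± 0.19 under ACEi (adjusted p = 6.79e-05). The direct difference between both treatments was 0.06 ± 0.20 and was not called (adjusted p = 0.921). Klk1 remained lower than in WT by 0.86 ± 0.17 under Anti-miR-21 (log2 fold change -0.86, adjusted p = 4.08e-04) and by 0.92 ± 0.21 under ACEi (log2 fold change -0.92, adjusted p = 0.00135). On the log2 scale between the Veh mean (0%) and the WT mean (100%), single Anti-miR-21 mice lay between 42.0 and 74.1% and ACEi mice between 56.0 and 59.9%. Among all tested genes, 3.12% had a more negative value than Klk1 in Veh relative to WT, and 95.1% had a lower value than Klk1 in Anti-miR-21 relative to Veh.

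The direction of these differences was the same on both flow cells. Within flow cell A the log2 fold change of Klk1 was -2.28 in Veh relative to WT, and against Veh it was 1.503 under Anti-miR-21 and 1.45 under ACEi. Within flow cell B it was -1.87 (adjusted p = 7.73e-04), 0.78 (adjusted p = 0.145) and 0.90 (adjusted p = 0.0604), with 1 Anti-miR-21 library there. The difference between ACEi and WT lost its call within flow cell A (-0.83, adjusted p = 0.0666, with 1 ACEi library taken to vary like the other groups).

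Markers of tubule segments moved with Klk1. Of 4 connecting tubule markers, the calcium-binding proteins Calb1 and S100g and the sodium-calcium exchanger Slc8a1 were lower in Veh than in WT, while the calcium channel Trpv5 was higher. Their summed level was 497 to 668 CPM in WT, 169 to 255 in Veh, 309 to 508 in Anti-miR-21 and 316 to 319 in ACEi kidneys. The sum of 3 distal convoluted tubule markers was 426 to 785 CPM in WT and 128 to 226 in Veh, with Slc12a3, the thiazide-sensitive cotransporter, and Pvalb lower and Trpm6 higher. All 4 proximal tubule markers were called lower in Veh than in WT, as were 34% of all genes. Their sum was 9320 to 12386 CPM in WT and 1116 to 3028 in Veh. Fewer cells of a type and less RNA per cell cannot be told apart in whole-kidney RNA, and the part of these segments in the Klk1 difference was not tested. Klk1 is also abundant in salivary gland and pancreas. Of 4 salivary genes Smr3a and Prol1 had 0 counts in all 20 libraries, and the summed level of the 4 was at most 1.55 CPM. The mucin gene Muc19, alone among them in passing the count filter, differed from Veh in the same directions as Klk1. It had 0.817 ± 0.331 CPM in WT, 0.158 ± 0.101 in Veh, 1.02 ± 0.499 in Anti-miR-21 and 0.501 ± 0.0511 in ACEi kidneys. Its log2 fold change was -2.35 between Veh and WT, and against Veh it was 2.66 under Anti-miR-21 and 1.65 under ACEi. Muc19 needed libraries other than Veh to pass the count filter, so these comparisons are given as values alone. Of 4 pancreatic genes Cpa1 and Pnlip had 0 counts in all libraries. The elastase gene Cela1 was alone in reaching the count filter there, with 78.7 ± 5.30 CPM in WT and 22.5 ± 5.87 in Veh. The part of either tissue in the Klk1 difference was not tested.

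Across the 20 mice, the protein-coding genes with levels most like Klk1 (Pearson's r of log2 CPM over 20 mice, among 13564 genes) were Atp6v1d, a subunit of the vacuolar proton pump (r = 0.99), the mitochondrial arginyl-tRNA synthetase Rars2 (r = 0.99) and Hdhd2 (r = 0.99). With each group's mean removed, so that only differences within groups count, the nearest were Atp6v1d (r = 0.94), Rmnd1 (r = 0.93) and the organic solute transporter subunit Slc51a (r = 0.92). These are descriptions over mice that share groups and library scaling, given without a test. Between Klk1 and Kng2 r was 0.90 over mice and 0.42 within groups.

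Kng2, the main kininogen transcript of these kidneys, fell to 52.7% of the WT level in Veh and stood at 1.51 times the Veh level under Anti-miR-21 (ratios of mean CPM). The 5 WT mice had 243, 249.3, 259, 260 and 285 CPM. The lowest Veh mouse had 113, the median was 135 and the highest had 167 CPM. Anti-miR-21 mice ranged from 187 to 218.6 CPM with a median of 208.9, and the 3 ACEi mice had 153, 159 and 170 CPM. WT, Anti-miR-21 and Veh did not overlap with each other, and the ACEi mice lay within the upper end of the Veh range and just past it. The means were 259 ± 15.9 (SD, n = 5) in WT, 137 ± 19.7 (n = 6) in Veh, 205.8 ± 12.8 (n = 6) in Anti-miR-21 and 161 ± 8.73 (n = 3) in ACEi kidneys.

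The log2 fold change of Kng2 was -0.92 ± 0.08 (SE) between Veh and WT (edgeR adjusted p = 3.76e-09) and 0.59 ± 0.08 in Anti-miR-21 relative to Veh (adjusted p = 3.16e-06). Between ACEi and Veh it was 0.23 ± 0.10 and was not called (adjusted p = 0.0598). That value rests on single libraries, since without Veh mouse A9, A16 or A20 it was 0.28, 0.33 or 0.27 and was called (adjusted p = 0.0306, 0.00406 and 0.0379). The direct difference between Anti-miR-21 and ACEi was 0.36 ± 0.10, with groups that did not overlap, and was not called by edgeR (adjusted p = 0.104) but was by DESeq2 (0.36, adjusted p = 0.0242). Kng2 was still below WT under ACEi (-0.69 ± 0.10, adjusted p = 1.92e-05) and under Anti-miR-21 (-0.33 ± 0.08, adjusted p = 0.00313). Single Anti-miR-21 mice lay 49.7 to 73.9% of the way from the Veh to the WT mean on the log2 scale, and ACEi mice 18.3 to 35.0%.

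The scaling moved the values of Kng2 and Klk1 alike, and with library totals alone those of Klk1 were -1.56 between Veh and WT and 0.93 in Anti-miR-21 relative to Veh, both called. With library totals alone the log2 fold change of Kng2 was -0.34 between Veh and WT (adjusted p = 2.49e-04), against a median of 0.65 over all genes, and 0.25 in Anti-miR-21 relative to Veh (adjusted p = 0.00366), against a median of -0.38. That between ACEi and Veh was then -0.03 and not called (adjusted p = 0.765). The difference between Anti-miR-21 and WT was then -0.09 and not called (adjusted p = 0.312). Within flow cell A the values were -0.99 and 0.73, both called, and within flow cell B they were -0.77 (adjusted p = 0.00307) and 0.27 (adjusted p = 0.345).

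**Figure D2:**
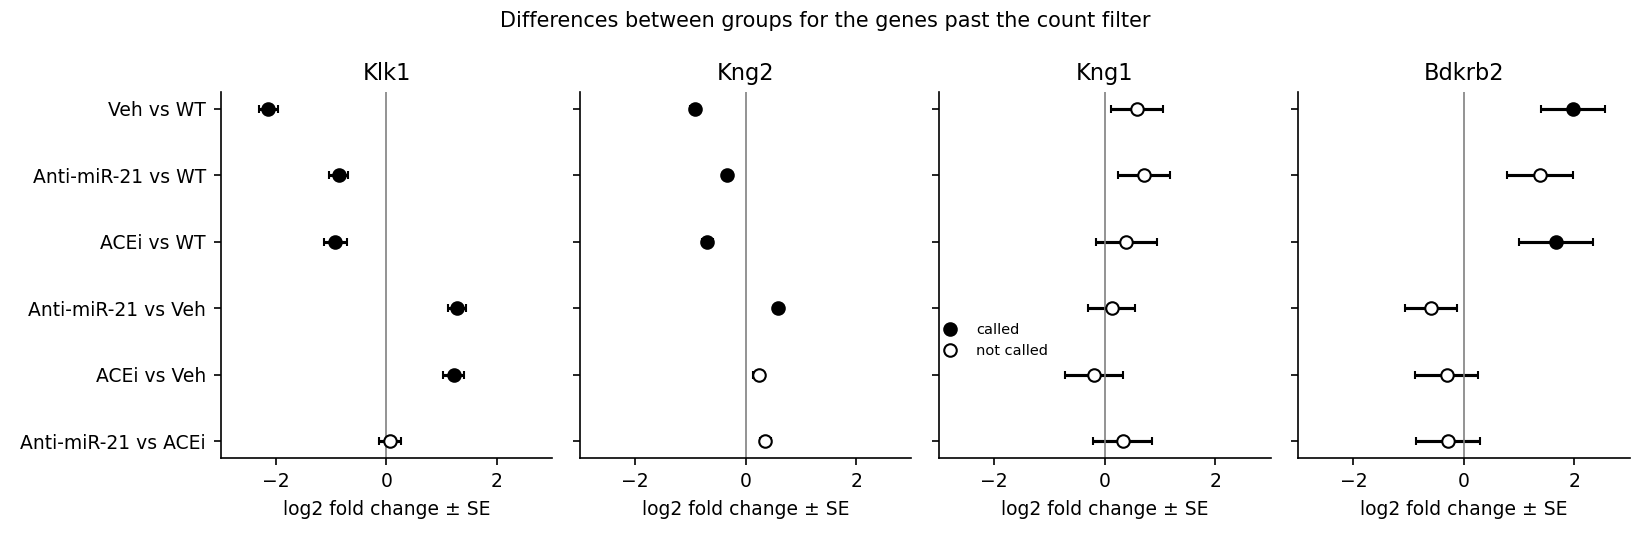
Log2 fold change ± SE from edgeR for the 4 genes past the count filter in each of the 6 comparisons, with filled points for an adjusted p-value under 0.05 and the vertical line at 0. Klk1 and Kng2 are below 0 in every comparison with WT, whereas Bdkrb2 is above 0 in those comparisons and no point of Kng1 is filled. Bdkrb2 passed the filter only through Col4a3-/- libraries, so its filled points for Veh and ACEi against WT are not read as tests.

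The genes most like Kng2 over the 20 mice were the monocarboxylate transporter Slc16a7 (r = 0.98), the mitochondrial malic enzyme Me3 (r = 0.97) and Nfyc, a subunit of a CCAAT-binding factor (r = 0.97). Within groups they were the Wnt co-receptor Lgr4 (r = 0.91), Eny2 (r = 0.85) and Me3 (r = 0.84). Hrg, which encodes histidine-rich glycoprotein and lies in the same chromosome 16 cluster, fell further than Kng2 in Veh (7.55 ± 2.50 CPM in WT, 0.272 ± 0.486 in Veh, log2 fold change -4.78). Its levels under Anti-miR-21 and ACEi were 2.42 ± 0.985 and 2.22 ± 0.781 CPM (log2 fold changes of 3.14 and 3.02 against Veh). Hrg needed libraries other than Veh to pass the count filter, so its comparisons with Veh are given as values alone. The neighbouring fetuin gene Fetub was not called between Veh and WT (-0.38, adjusted p = 0.172). Ahsg, the third gene of that cluster, was -1.24 between Veh and WT (adjusted p = 0.333). Under Anti-miR-21 Ahsg was lower, opposite to Hrg, at -4.78 against Veh and -6.02 against WT. Ahsg needed libraries of the other groups to pass the filter, so these are given as values alone. These values rest on few libraries. Ahsg counts were 1 to 230 in Veh (median 8), 0 to 194 in WT (median 8) and 0 to 4 in Anti-miR-21 libraries. The 230 counts were in Veh mouse A20, 1 of the 5 libraries high in Alb, none of which was from the Anti-miR-21 group.

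Kng1, the other kininogen gene, is known mainly from liver and gave few counts in these kidneys. Its FPKM was at most 2.16% of the sum of both kininogen genes in any mouse. The WT mice fell into separate sets of values, with 0.338, 0.503 and 0.516 CPM in A6, A3 and A14 and with 2.93 and 3.23 CPM in A17 and A18, which are 8 to 12 against 72 and 77 estimated counts. Veh mice ranged from 1.24 to 3.72 CPM (median 1.96), Anti-miR-21 mice from 1.56 to 3.17 CPM (median 2.41), and the ACEi mice had 1.62, 1.72 and 2.59 CPM. All 15 Col4a3-/- mice were above WT mice A3, A6 and A14, and A17 and A18 lay within the Col4a3-/- range.

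Over all mice no difference in Kng1 was called. The log2 fold change was 0.59 ± 0.47 (SE) between Veh and WT (edgeR adjusted p = 0.263), 0.71 ± 0.47 between Anti-miR-21 and WT (adjusted p = 0.229) and 0.39 ± 0.56 between ACEi and WT (adjusted p = 0.591). Between the Col4a3-/- groups it lay between -0.20 and 0.32, and its sign there changed with the scaling for Anti-miR-21 against Veh. Flow cell split these results. Within flow cell A, which held A3, A6 and A14, Kng1 was higher than WT by 2.18 ± 0.38 in Veh (adjusted p = 1.72e-04), 2.54 ± 0.37 in Anti-miR-21 (adjusted p = 2.35e-04) and 2.57 ± 0.49 in ACEi kidneys (adjusted p = 0.00181, with 1 ACEi library taken to vary like the other groups). Within flow cell B, with A17 and A18, the same values were -0.15, -0.55 and -0.89, and none was called (adjusted p = 0.766, 0.459 and 0.123).

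Liver transcripts moved with the WT split as well. Apart from Ttr, which had at least 2826 counts in every library, the hepatocyte markers were higher in the 5 libraries with at least 500 Alb counts, with 50 to 237 counts of Apoa1 against 6 to 31 and 8 to 68 of Cyp3a11 against 0 to 10. Ahsg, the liver fetuin gene of the kininogen cluster, had 39 to 230 counts in those libraries and 0 to 13 in the other 15. Kng1 itself overlapped, with 48 to 132 counts (median 76.1) in those 5 libraries and 8 to 108 (median 60.2) in the other 15. Veh mouse A1, for example, had 21 Alb counts and 108 Kng1 counts. Without those 5 libraries, a selection added after the data were seen, the log2 fold change of Kng1 was 2.15 ± 0.35 between Veh and WT. It was 2.48 ± 0.34 between Anti-miR-21 and WT, and 1.86 between the 1 ACEi library left and WT. All are given as values without a test, since the selection removes A17 and A18, the WT mice with the most Kng1. WT mice A17 and A18 were both on lane 1 of flow cell B and both high in Alb. Flow cell, lane and liver transcripts thus cannot be told apart for them. By the library names, Veh mouse A20 alone shared that lane. A17, A18 and A20 had the highest Alb counts (1765, 2301 and 2307). The other libraries of flow cell B, all on another lane, had 100 to 680. A20 also had the most Kng1 counts (132). The part of flow cell, lane or liver transcripts in the Kng1 values was not tested. The genes most like Kng1 over mice were H2-Q10 (r = 0.84), the fibrinogen chain gene Fgb (r = 0.83) and Lemd2 (r = 0.80), and within groups the heme-binding plasma protein gene Hpx (r = 0.88), Trp53rkb (r = 0.85) and Fgb (r = 0.84). Counts of Kng1 are also uncertain beside a near copy that gave at least 45.4 times its FPKM in every mouse.

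**Figure D3:**
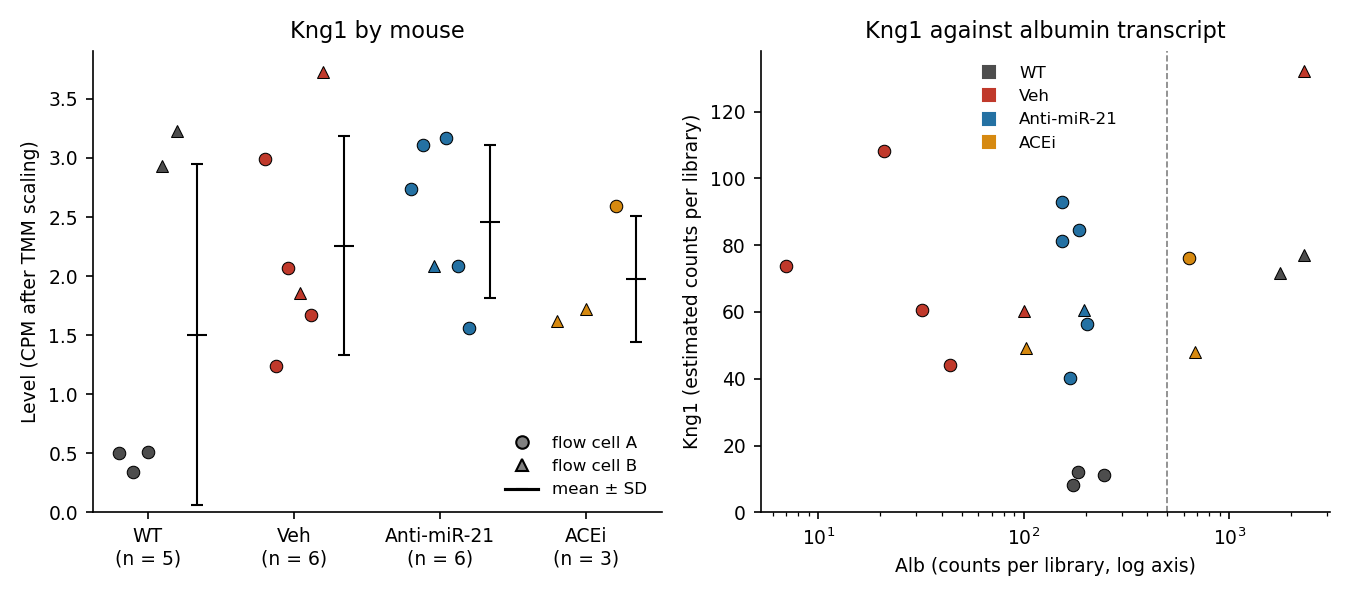
Kng1 in each of the 20 mice: left, CPM after TMM scaling by group with bars for the mean ± SD; right, estimated counts of Kng1 against counts of Alb (log axis), with a dashed line at 500 Alb counts, circles for flow cell A and triangles for flow cell B. WT mice A3, A6 and A14 hold 8 to 12 Kng1 counts at 173 to 247 Alb counts, and WT mice A17 and A18 hold 72 and 77 at 1765 and 2301.

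The receptors were rare transcripts. Bdkrb2 (chr12:105563226-105595237, plus strand, ENSMUSG00000021070) encodes the B2 receptor, which most tissues carry without induction. It had 0, 2, 3, 3 and 6 counts in the 5 WT libraries. Veh libraries had 7 to 27 counts (median 18), Anti-miR-21 libraries 5 to 14 (median 9), and the ACEi libraries had 5, 6 and 23. By count, all Veh mice were above all WT mice, but in CPM WT mouse A6 (0.246 CPM) was above Veh mice A1 (0.193 CPM) and A4 (0.197 CPM). The means were 0.118 ± 0.0891 CPM (SD, n = 5) in WT, 0.476 ± 0.248 (n = 6) in Veh, 0.312 ± 0.116 (n = 6) in Anti-miR-21 and 0.380 ± 0.325 (n = 3) in ACEi kidneys.

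Bdkrb2 passed the count filter only through the Col4a3-/- libraries, so its comparisons with WT in that fit, at log2 fold changes of 1.98 ± 0.58 (SE) for Veh, 1.38 ± 0.60 for Anti-miR-21 and 1.66 ± 0.67 for ACEi, are given as values alone. With no count filter, so that the level in any group had no part in its entry, edgeR gave 1.99 ± 0.58 between Veh and WT (adjusted p = 0.00582), 1.40 ± 0.60 between Anti-miR-21 and WT (adjusted p = 0.0903) and 1.70 ± 0.67 between ACEi and WT (adjusted p = 0.0621), with the first called. With the filter, the value between ACEi and WT was 0.69 without ACEi mouse A11, and that between Anti-miR-21 and WT was 1.83 without WT mouse A6. Against Veh, with the filter, it was -0.60 ± 0.47 under Anti-miR-21 (adjusted p = 0.284) and -0.31 ± 0.57 under ACEi (adjusted p = 0.689), and neither was called. Within flow cell A the difference between Veh and WT was 1.504 (adjusted p = 0.0580) and within flow cell B 3.03 (adjusted p = 0.0664), higher on both but called on neither.

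Bdkrb1 (chr12:105603085-105605428, plus strand, ENSMUSG00000041347), the next gene on the chromosome, encodes the B1 receptor, which is known for its induction in injured and inflamed tissue. The WT libraries had 0, 0, 1, 1 and 4 counts, with 4 in mouse A6. Veh libraries had 3 to 8 counts (median 7.5), Anti-miR-21 libraries 1 to 3 (median 1.5), and the ACEi libraries had 3, 3 and 6. Summed over mice this was 6 counts in WT, 37 in Veh, 11 in Anti-miR-21 and 12 in ACEi kidneys. Anti-miR-21 mice had at most the lowest Veh count, and WT mouse A6 lay within the Veh range. All Anti-miR-21 mice, 4 WT mice, 2 Veh mice and 2 ACEi mice had 3 counts or fewer, the limit below which a single library cannot tell a level from 0.

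Bdkrb1 did not pass the count filter, so its CPM values were compared by exact two-sided permutation tests, adjusted over its 6 comparisons. The mean was 0.176 ± 0.0731 CPM (SD, n = 6) in Veh and 0.0501 ± 0.0673 (n = 5) in WT, a log2 ratio of 1.81 (exact p = 0.0216, adjusted 0.0649). It was 0.0641 ± 0.0316 in Anti-miR-21 kidneys (n = 6), a log2 ratio of -1.46 to Veh (exact p = 0.0173, adjusted 0.0649), and 0.138 ± 0.0661 in ACEi kidneys (n = 3), a log2 ratio of -0.34 to Veh (exact p = 0.488, adjusted 0.586). Neither the rise in Veh nor the lower level under Anti-miR-21 passed the threshold after adjustment, although both did with library totals alone (2.37 and -1.75, exact test, adjusted p = 0.0390 for each). Both also passed without Veh mouse A1 (1.96 and -1.60, exact test) or A20 (1.95 and -1.60, exact test). A1 and A20 had the lowest Veh counts, 3 each, so leaving out either raises the Veh mean. Without WT mouse A6 the log2 ratio of Veh to WT was 3.02 (exact test, adjusted p = 0.0519). The smallest p these permutations can give is 0.0022 for Veh against WT or Anti-miR-21 and 0.012 for ACEi against Veh.

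**Figure D4:**
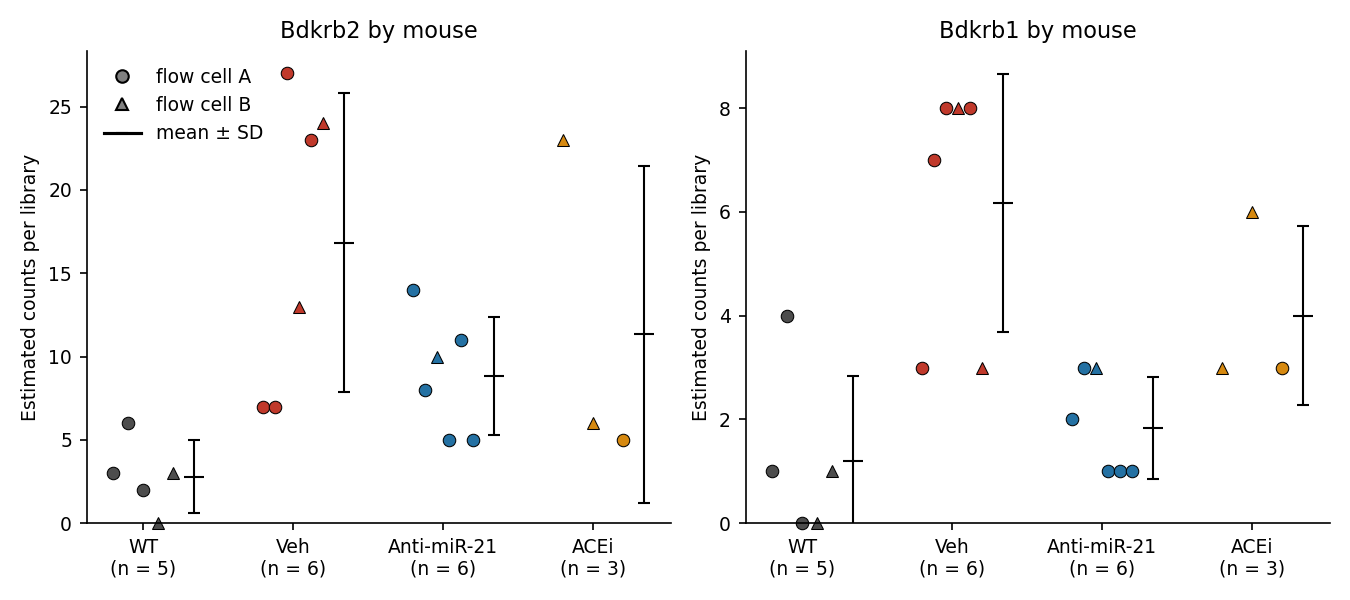
Estimated counts per library of Bdkrb2 (left) and Bdkrb1 (right) for each of the 20 mice by group, with circles for flow cell A, triangles for flow cell B and bars for the mean ± SD. Bdkrb2 counts are 0 to 6 in WT and 7 to 27 in Veh, and Bdkrb1 counts are at most 8 in any mouse.

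Markers of other cells were higher beside the receptors. The sum of 4 fibroblast markers was 109 to 250 CPM in WT, 1485 to 1793 in Veh, 421 to 807 in Anti-miR-21 and 790 to 902 in ACEi kidneys, with all 4 called higher in Veh than in WT. For 4 macrophage markers it was 122 to 134, 540 to 639, 239 to 341 and 300.03 to 357 CPM, again with all 4 called higher in Veh. Their part in the receptor values was not tested. Of 4 endothelial markers 2 were called higher and 1 lower, with sums of 77.1 to 213 CPM in WT and 181 to 230 in Veh. Between Veh and WT 39% of all genes were called higher and 34% lower.

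Counted together, and leaving Bdkrb2 out of the counts against WT because its Col4a3-/- libraries took it past the filter, 2 of the other 3 members past it, Klk1 and Kng2, were called between Veh and WT, both lower, against 73% of all tested genes called in that comparison, 39% higher and 34% lower. The groups did not overlap for either gene, as for 54.9% of all genes. Under Anti-miR-21 Klk1 and Kng2, 2 of the 4 members past the filter, were called higher than Veh without overlap, where 59.2% of all genes were called, 28.8% higher and 30.5% lower, and 36.4% did not overlap. Under ACEi Klk1, 1 of the 4, was called higher than Veh without overlap, where 40.1% of all genes were called, 21% higher and 19.1% lower, and 38.6% did not overlap. Against WT, Klk1 and Kng2 were called in Anti-miR-21 without overlap (43.7% of all genes called, 23.8% without overlap). In ACEi against WT Klk1 and Kng2 were likewise called without overlap (47.7% of all genes called, 46.1% without overlap). Most genes of these kidneys moved as well, so the number of members called says little about the members. Between both treatments edgeR called 0 of the 4 (background 0.584%) and DESeq2 called 1, Kng2 (background 2.48%). The groups did not overlap for Kng2 alone in that comparison (background 8.99%). The comparisons with Veh share the Veh mice, and those with WT share the WT mice.

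The other genes of the pathway were taken from lists of 62 genes, of which 61 had counts and 42 passed the count filter. Between Veh and WT 16 were called higher, 15 lower and 11 neither way, against the same background of 73% called. The 16 include Serpina3c, Tnf and Il6, which needed the Col4a3-/- libraries to pass the filter. The 15 include Hrg, which needed libraries other than Veh to pass it. With library totals alone the split was 25 higher and 6 lower, beside the shift of all genes given above. Under Anti-miR-21 10 exceeded Veh and 14 were below it by that test, and under ACEi 11 exceeded it and 8 were below it. Hrg is among the 10 and the 11, and Ahsg, which needed libraries outside Anti-miR-21 to pass the filter, is among the 14. The shares of all genes called in these comparisons were 59.2% (28.8% higher and 30.5% lower) and 40.1% (21% higher and 19.1% lower). With library totals alone these were 6 and 23, and 6 and 17.

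Of 11 kinin-degrading peptidases 7 were called lower in Veh than in WT, 1 higher and 3 neither way, where 34% of all genes were called lower and 39% higher (median log2 fold change -0.37, against 0.07 for all genes). Of the 7, Mme, Nln and Prcp had the opposite sign with library totals alone. Ace, the enzyme ramipril inhibits, had 346 ± 58.6 CPM in WT, 61.4 ± 22.8 in Veh, 196 ± 39.6 in Anti-miR-21 and 197 ± 10.5 in ACEi kidneys. Its log2 fold change was -2.49 between Veh and WT (adjusted p = 9.04e-10), and relative to Veh it was 1.67 under Anti-miR-21 and 1.68 under ACEi, with groups that did not overlap in all 3. The aminopeptidase gene Xpnpep2 fell by 1.67 on the log2 scale in Veh. Mme, which encodes neprilysin, was 102 ± 14.4 CPM in WT and 75.7 ± 7.16 in Veh (log2 fold change -0.44, adjusted p = 1.73e-04), but with library totals alone it was 0.15 in the opposite direction. Mme was called higher than Veh under Anti-miR-21 (0.37, adjusted p = 9.38e-04) and not under ACEi (0.01, adjusted p = 0.944). Thop1, which encodes thimet oligopeptidase, was the member called higher in Veh (0.17, adjusted p = 0.0416). Under Anti-miR-21 and under ACEi, 7 of the 11 were called higher than Veh, with 1 and 0 called lower by edgeR, where 28.8% and 21% of all genes were called higher and 30.5% and 19.1% lower.

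Genes of the carboxypeptidases that remove the last arginine of kinins, and so form ligands of the B1 receptor, were called higher in Veh for 2 of 3. Of all genes 39% were called higher in that comparison with WT. Cpn1, the catalytic subunit of carboxypeptidase N, was 61.3 ± 7.24 CPM in WT and 118 ± 21.4 in Veh (0.94, adjusted p = 3.35e-07), and stood at 114 ± 14.4 under Anti-miR-21 and 124 ± 7.06 under ACEi, neither called against Veh. Cpm, the membrane-bound enzyme, was 30.8 ± 12.4 CPM in WT and 50.1 ± 13.1 in Veh (0.70, adjusted p = 0.00577), and 26.9 ± 2.28 under Anti-miR-21 (-0.90 against Veh, adjusted p = 7.46e-04). Cpn2, the non-catalytic subunit of carboxypeptidase N, was not called (1.18, adjusted p = 0.125).

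Both measured serpins that restrain kallikreins had higher means in Veh than in WT and were called lower than Veh under both treatments. Of all genes 39% were called higher in Veh than in WT. Below Veh, 30.5% were called under Anti-miR-21 and 19.1% under ACEi. Serping1, the C1 inhibitor that blocks plasma kallikrein, was 83.3 ± 29.9 CPM in WT, 449 ± 38.9 in Veh, 249 ± 56.3 in Anti-miR-21 and 284 ± 36.0 in ACEi kidneys (2.43 between Veh and WT, adjusted p = 1.90e-09). Serpina3c was 0.176 ± 0.128 CPM in WT and 1.74 ± 1.24 in Veh (3.27). It needed the Col4a3-/- libraries to pass the count filter, so this comparison is given as a value alone. Serpina5 had 0 counts in all libraries. Of the plasma contact system, F12 and F11 had at most 25 counts summed over any group and did not pass the filter, and Klkb1 was in the FPKM table alone, with means of 0.422 ± 0.118 FPKM in WT and 0.136 ± 0.0386 in Veh.

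The 13 glandular kallikrein paralogues were low, with a summed level of 7.89 to 11.2 CPM in WT and 5.45 to 6.55 in Veh, beside at least 1248 CPM of Klk1 in each WT mouse. Of 8 past the filter, 4 were called lower in Veh and 0 higher, where 34% of all genes were called lower and 39% higher. Klk1b16 fell by 1.88 (adjusted p = 3.77e-04) and Klk1b22 fell by 1.48 on the log2 scale (adjusted p = 0.0101), and Klk1b16 was called higher than Veh under Anti-miR-21 (1.29) and ACEi (1.69). Their counts carry some uncertainty beside Klk1, with which Klk1b16 shared 21 windows of 50 bases and Klk1b22 shared 1. Neither shared a window of 100 bases, the length of a read, with Klk1, whereas Klk1b5 shared 48. Of 12 other kallikrein-related peptidases only Klk8, the brain protease neuropsin, passed the filter, and it was higher in Veh (0.742 ± 0.126 CPM in WT, 1.48 ± 0.278 in Veh, log2 fold change 0.99, adjusted p = 1.20e-04).

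Downstream of the receptors, 7 of 11 signalling genes were called higher in Veh than in WT, 3 lower and 1 neither way, where 39% of all genes were called higher and 34% lower (median log2 fold change 0.55, against 0.07 for all genes). Of the 3 lower, Gna11 and Gna14 had the opposite sign with library totals alone. Plcb2, a phospholipase C of blood cells, rose by 2.68 on the log2 scale (adjusted p = 7.95e-11) and Ptgs2, the inducible cyclooxygenase, by 2.41 (adjusted p = 1.69e-05), from 0.341 ± 0.237 to 1.84 ± 0.421 CPM. Plcb1 fell by 0.76 (adjusted p = 2.86e-05) and the G protein subunit Gna14 fell by 0.42 (adjusted p = 8.55e-04), although Gna14 was 0.16 higher with library totals alone. Ptgs2 was lower than Veh under Anti-miR-21 (log2 fold change -0.999, adjusted p = 0.0144) and was not called under ACEi (-0.63, adjusted p = 0.231). The means of all 3 cytokines known to induce the B1 receptor were higher in Veh than in WT. Il1b went from 0.806 ± 0.484 to 14.3 ± 5.74 CPM (4.14, edgeR adjusted p = 1.48e-09), where 39% of all genes were called higher. Tnf went from 0.207 ± 0.175 to 5.07 ± 0.934 CPM (4.57). Il6 had 1 count over the 5 WT libraries and a mean of 1.003 ± 0.407 CPM in Veh (6.31). Tnf and Il6 needed the Col4a3-/- libraries to pass the count filter, so their comparisons with WT are given as values alone. All 3 cytokines were called lower than Veh under Anti-miR-21, and Il1b and Tnf under ACEi. Of all genes 30.5% and 19.1% were called lower in these comparisons. Macrophage markers, given above, moved with these cytokines and with Plcb2.

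**Figure D5:**
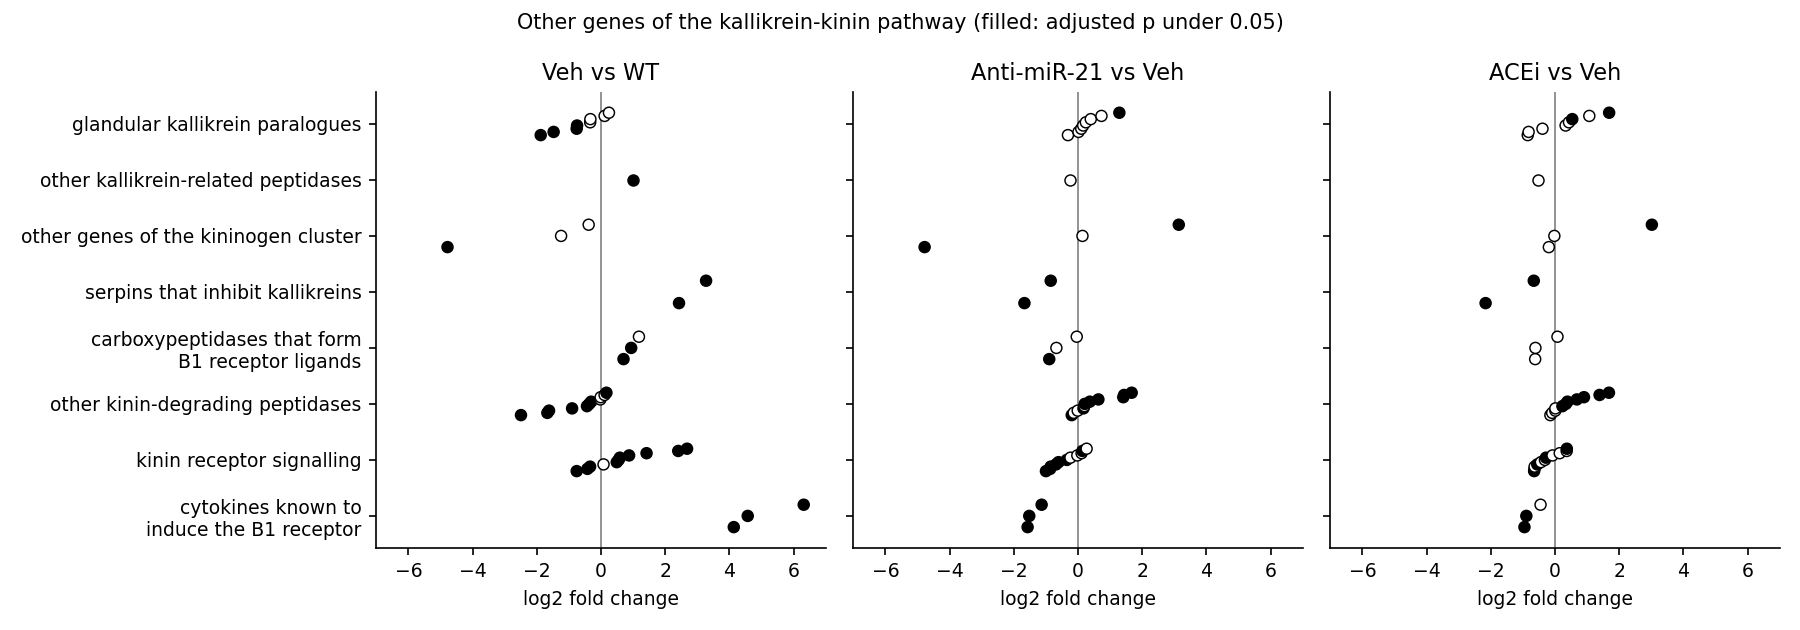
Log2 fold change of the 42 other pathway genes past the count filter, 1 point per gene by list, with Veh relative to WT (left), Anti-miR-21 relative to Veh (middle) and ACEi relative to Veh (right), with filled points for an adjusted p-value under 0.05. Between Veh and WT 7 of 11 kinin-degrading peptidases are filled and left of 0, and all 3 cytokines are filled and right of 4. Tnf, Il6 and Serpina3c needed the Col4a3-/- libraries to pass the count filter, so their fill against WT is not read as a test. Hrg needed libraries other than Veh, and Ahsg libraries outside Anti-miR-21. The fill of Hrg in every panel and of Ahsg in the middle panel is thus not read as a test either.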

How the data were processed

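Paired-end reads were aligned by the authors to GRCm38 (OmicSoft aligner), who deposited estimated counts (expected counts) for 47069 Ensembl genes, not normalized, and deposited FPKM values, which are scaled to transcript length and depth, for 33368 entries mostly of UCSC genes. Of positive deposited counts 22.4% were not whole (tolerance 0.005) and were rounded. Of the FPKM columns, 3 could not be matched to a mouse and were not used.

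Counts were tested with edgeR 4.0.16 in R 4.3.3 (filterByExpr with minimum count 10 and minimum total 15, TMM, quasi-likelihood test, 1 coefficient per group over 20 mice), with Benjamini-Hochberg adjustment over genes and a threshold of 0.05. Bdkrb1, which failed the filter, was tested with exact permutations, chosen after seeing the counts. DESeq2 1.42.0 and limma 3.58.1 on log2(FPKM + 1) were alternatives, with other scalings, filters and samples. Steps were tested on simulated data.

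The labels name a mouse per library and pair none. Mice are taken as separate samples of a group. No 2 libraries held identical counts. The members, lists, marker genes and tests were chosen with earlier results of these data known. Named genes were the members, list genes (all in lists of at most 3, otherwise the pair that rose most and the pair that fell most in Veh, with Ace and Mme), the 3 genes most like each member with a mean of at least 1 CPM, and markers that moved with a result. Gene positions are from GENCODE M21, and promoters (3 of 5 members matched) and the microRNA from RefSeq (GRCm38.p6). Neutrophil markers are given in the closing section.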

Additional observations from a re-analysis of the deposited data

Results flagged for a closer look

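The Bdkrb1 level of WT mouse A6, 0.164 CPM from 4 counts, stood apart from the other 4 WT mice, which had 0 to 0.0445 CPM. Chance alone flags about 1 in 20 groups in this way.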

How the results depend on the processing

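The lower Klk1 and Kng2 levels of Veh against WT were called under all alternatives run. Their rise under Anti-miR-21 and that of Klk1 under ACEi were called under all but flow cell B alone, where Klk1 was 0.78 and 0.90 and Kng2 0.27 (log2 fold changes here and below, as first group/second group). Other calls moved, and unless stated the cause was not tested. With flow cell B alone, where fewer libraries enter, Klk1 was -0.11 (Anti-miR-21/ACEi) and -1.09 (Anti-miR-21/WT), Kng2 -0.50 (Anti-miR-21/WT), Bdkrb2 3.03 (Veh/WT) and 2.89 (ACEi/WT), and Kng1 -0.15 (Veh/WT), -0.40 (Anti-miR-21/Veh), -0.55 (Anti-miR-21/WT) and -0.89 (ACEi/WT). Of the genes tested there, 2.33% (Anti-miR-21/Veh), 7.35% (ACEi/Veh), 0% (Anti-miR-21/ACEi by edgeR), 13.6% (Anti-miR-21/WT) and 27.9% (ACEi/WT) were called, against 59.2%, 40.1%, 0.584%, 43.7% and 47.7% with all mice. Pathway genes called there were 5 lower (Veh/WT), 1 higher and 0 lower (Anti-miR-21/Veh) and 3 higher and 1 lower (ACEi/Veh). With flow cell A alone, with 1 ACEi library assumed to vary like the others, Klk1 was -0.83 (ACEi/WT), Bdkrb1 -0.31 (Anti-miR-21/WT), Bdkrb2 1.504 (Veh/WT), 0.83 (Anti-miR-21/ACEi) and 0.15 (ACEi/WT), and Kng1 2.18 (Veh/WT), 0.39 (ACEi/Veh), -0.031 (Anti-miR-21/ACEi), 2.54 (Anti-miR-21/WT) and 2.57 (ACEi/WT). The genes called were 16.6% (ACEi/Veh), 0.0271% (Anti-miR-21/ACEi) and 26.5% (ACEi/WT) of those tested, with 1 pathway gene lower (ACEi/Veh). With flow cell as a term, Bdkrb2 was 1.57 (ACEi/WT) and not called.

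With library totals alone Klk1 was -0.023 (Anti-miR-21/ACEi), Kng1 1.16 (Veh/WT) and -0.21 (Anti-miR-21/Veh), Kng2 -0.032 (ACEi/Veh) and -0.093 (Anti-miR-21/WT), Bdkrb1 2.37 (Veh/WT) and -1.75 (Anti-miR-21/Veh) and Bdkrb2 1.62 (Anti-miR-21/WT). Pathway genes called were 25 higher and 6 lower (Veh/WT), 6 and 23 (Anti-miR-21/Veh) and 6 and 17 (ACEi/Veh), beside the shift of all genes that this scaling makes. Upper-quartile scaling gave 13 lower (ACEi/Veh). DESeq2 called Kng2 at 0.36 (Anti-miR-21/ACEi) and 2.48% of genes in that comparison, where edgeR called 0.243% with no count filter and 1.12% among genes with at least 10 counts in every mouse. That stricter filter left 9 pathway genes lower (Anti-miR-21/Veh), with fewer genes tested. With no filter Bdkrb1 was 1.73 (Veh/WT, called) and Bdkrb2 1.70 (ACEi/WT, not called). With limma on log2(FPKM + 1) Klk1 was -0.032 (Anti-miR-21/ACEi), Kng1 0.62 (Veh/WT) and -0.11 (Anti-miR-21/Veh), Kng2 -0.035 (ACEi/Veh) and -0.085 (Anti-miR-21/WT), Bdkrb1 0.17 (Veh/WT) and -0.15 (Anti-miR-21/Veh) and Bdkrb2 0.21 (ACEi/WT), values that the pseudocount shrinks for low genes. Requiring a mean of at least 0.1 FPKM gave the same values and 0.50 for Kng1 (Anti-miR-21/WT), now called. With a pseudocount of 0.1 these were -0.032 for Klk1, 1.42 and -0.18 for Kng1, -0.035 and -0.086 for Kng2, 1.01 and -0.80 for Bdkrb1 and 0.97 for Bdkrb2, with Kng1 1.24 (Anti-miR-21/WT), Bdkrb1 0.68 (ACEi/WT) and Bdkrb2 0.85 (Anti-miR-21/WT) also called and 0.280% of genes called (Anti-miR-21/ACEi). With FPKM divided by the TMM factor, added after the data were seen, Bdkrb1 was 0.13 (Veh/WT) and -0.11 (Anti-miR-21/Veh) and Bdkrb2 0.19 (ACEi/WT).

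Without the 5 libraries of at least 500 Alb counts, added after the data were seen and leaving 1 ACEi library assumed to vary like the others, Klk1 was -0.94 (ACEi/WT), Kng1 2.15 (Veh/WT), 2.48 (Anti-miR-21/WT) and 1.86 (ACEi/WT), Bdkrb1 -1.60 (Anti-miR-21/Veh) and -0.12 (Anti-miR-21/WT), and Bdkrb2 0.79 (ACEi/Veh) and 2.25 (ACEi/WT). The genes called were 13.4% (ACEi/Veh), 0.00541% (Anti-miR-21/ACEi) and 20.5% (ACEi/WT) of those tested, with 6 pathway genes higher and 0 lower by edgeR (ACEi/Veh). Leaving out each mouse in turn, Klk1 ranged from -0.00457 to 0.13 (Anti-miR-21/ACEi), Kng1 from -0.44 to 0.031 (ACEi/Veh), Kng2 from 0.20 to 0.33 (ACEi/Veh), Bdkrb1 from 1.49 to 3.02 (Veh/WT) and from -1.65 to -1.33 (Anti-miR-21/Veh), and Bdkrb2 from -1.28 to 0.040 (ACEi/Veh), from -0.63 to 0.69 (Anti-miR-21/ACEi), from 1.06 to 1.83 (Anti-miR-21/WT) and from 0.69 to 2.11 (ACEi/WT). The share of tested genes called ranged from 0.117% without ACEi mouse A23 to 1.22% without mouse A8 (Anti-miR-21/ACEi). No paired analysis was possible because the mouse names in the labels pair no mice across groups. Depth limits the receptors, with at most 27 counts in a library, and Kng1.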

Other observations

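The markers of other cell types that could hold the members gave further values. Of 6 markers of principal cells of the collecting duct 3 were called lower in Veh than in WT, among them the water channel Aqp3 (154 ± 18.6 CPM in WT, 56.2 ± 26.9 in Veh, log2 fold change -1.46, adjusted p = 4.86e-06 by edgeR). The others called, Scnn1g (-0.42) and Hsd11b2 (-0.38), had the opposite sign with library totals alone (0.16 and 0.20). Of 4 thick ascending limb markers 3 were called lower and 1 higher. Of 3 smooth muscle markers 2 were called higher in Veh, with sums of 57.4 to 89.0 CPM in WT and 220 to 324 in Veh. The 4 neutrophil markers summed to at most 2.38 CPM in any mouse, and Ly6g had at most 9 counts over a group. Of 4 adipocyte markers 3 were called higher in Veh, with sums from 0.564 to 113 CPM within that group. Beside these marker counts, 39% of all genes were called higher and 34% lower in Veh than in WT.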
